A study of Mus musculus with 24 samples.

Results

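The fasting response of the liver was compared between genotypes, gene by gene, as the fasting change in LKO mice minus the fasting change in LWT mice. All 24 arrays of the series entered this interaction. Each array held the liver RNA of 1 mouse, and each of the 4 groups had 6 mice. Of 21779 genes measured, 752 (3.45%) passed the test for a genotype difference in the fasting change. These genes were then sorted by what fasting did in each genotype into 495 amplified, 162 blunted and 92 reversed changes, and 3 genes fell in no class.

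The mice were 12-week-old C57BL/6J males, and all of them carried p110α alleles flanked by loxP sites. LKO mice also carried a Cre recombinase under the albumin promoter, which is active in hepatocytes, and LWT mice were littermates without Cre. The effect of Cre itself and of the deletion cannot be told apart, and other cells of the liver keep p110α. Fed mice had free access to food, fasted mice went 24 h without food, and all were killed at ZT16, in the dark phase in which mice normally eat. The groups are called fed LWT, fasted LWT, fed LKO and fasted LKO below, and their labels are p110aLWT_Fed, p110aLWT_Fasted, p110aLKO_Fed and p110aLKO_Fasted.

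p110α is the catalytic subunit of phosphoinositide 3-kinase that carries much of the insulin signal from the insulin receptor and its substrates to the kinase AKT. After a meal this pathway raises the enzymes of fatty acid synthesis and holds FOXO transcription factors outside the nucleus. In a fast insulin falls, fatty acids arrive from adipose tissue, and the nuclear receptor PPARα raises genes of fatty acid oxidation, ketone body production and lipid droplet coating. A genotype that signals less in the fed state can alter a fasting change by its starting level, by its end level or by both, so each state is given beside the difference.

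Values are log2 signals, quantile normalized by the authors. They measure RNA of the whole liver, in which fewer cells of a type and less RNA per cell cannot be told apart. One probe per gene was used, the one with the highest mean over the arrays, and levels of different genes are not comparable. Depth does not apply to arrays, and the number of mice limits the precision. The share of spots that stood well above background ran from 54.7% to 63.0% by array, and no spot was saturated. The p-values measure the spread between these mice. Hepatocyte markers such as Alb, Ttr and Apoa1 were well above background, and 0 of 8 passed the test, with an interaction below 0 in each and a median of -0.19. The summed hepatocyte marker level (log2) was 20.91 to 20.96 in fed LWT and 20.92 to 20.95 in fed LKO. In fasted mice it was 20.96 to 21.01 in LWT and 20.85 to 20.93 in LKO, without overlap. Of 6 bile duct markers 0 passed, but their summed level was lower in LKO in both states, without overlap. It was 11.07 to 11.77 in fed LWT and 9.74 to 10.9 in fed LKO. The fasted groups were at 10.8 to 11.14 in LWT and 9.13 to 10.27 in LKO. For 13 Kupffer and myeloid markers the interaction was above 0 in each, with a median of 0.47. Cd14, a receptor for bacterial lipopolysaccharide, was the 1 of the 13 that passed (1.05, adjusted p = 0.0391).

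Pik3ca, which encodes p110α, was not lower on arrays labelled LKO. Its probe (chr3:32364747-32364806, mouse build mm9 as in the files) gave 11.71 to 12.25 (median 11.88) in fed LWT, 12.05 to 12.42 (median 12.32) in fasted LWT, 12.3 to 13.02 (median 12.5) in fed LKO and 12.03 to 12.5 (median 12.27) in fasted LKO. All fed LKO arrays lay above all fed LWT arrays, and the fasted groups overlapped. The probe's position relative to the deleted part of the gene was not examined here, so this signal does not check the deletion. Pik3ca itself passed the test, with a 1.27-fold fasting rise in LWT and no change that passed in LKO (interaction -0.6 ± 0.16 SE, adjusted p = 0.0181). Its call was lost in 7 of 24 omissions of one array, where the interaction ran from -0.67 to -0.53.

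A gene passed where the adjusted p did not exceed 0.05 and the genotypes differed by over 1.5-fold in the fasting change. In 368 genes (1.69%) the fasting change was higher in LKO and in 384 genes (1.76%) it was lower. Without the fold minimum 2172 genes (10.0%) passed. At the fold limit, Slc35g2 lay just outside with an interaction of 0.585. At the limit of adjusted p, Sema4c lay just inside at 0.04995 and Aqp4 just outside at 0.05037.

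Amplified changes were those larger in LKO than in LWT in the same direction or from no passing change, and they made up 65.8% of the 752 genes. Fasting raised 243 of them in LKO and lowered 252. In 282 of the 495, the LWT change did not pass the test, so the fasting change was seen with a call in LKO alone. Blunted changes were larger in LWT, and comprised 72 rises and 90 falls, of which 129 did not pass in LKO. Reversed changes passed in both genotypes with opposite signs, with 57 genes rising in LWT and falling in LKO and 35 the other way round. The classes describe the genes and were not tested. In 250 of the amplified and blunted genes the estimates of the 2 genotypes had opposite signs while 1 of them did not pass.

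**Figure D1:**
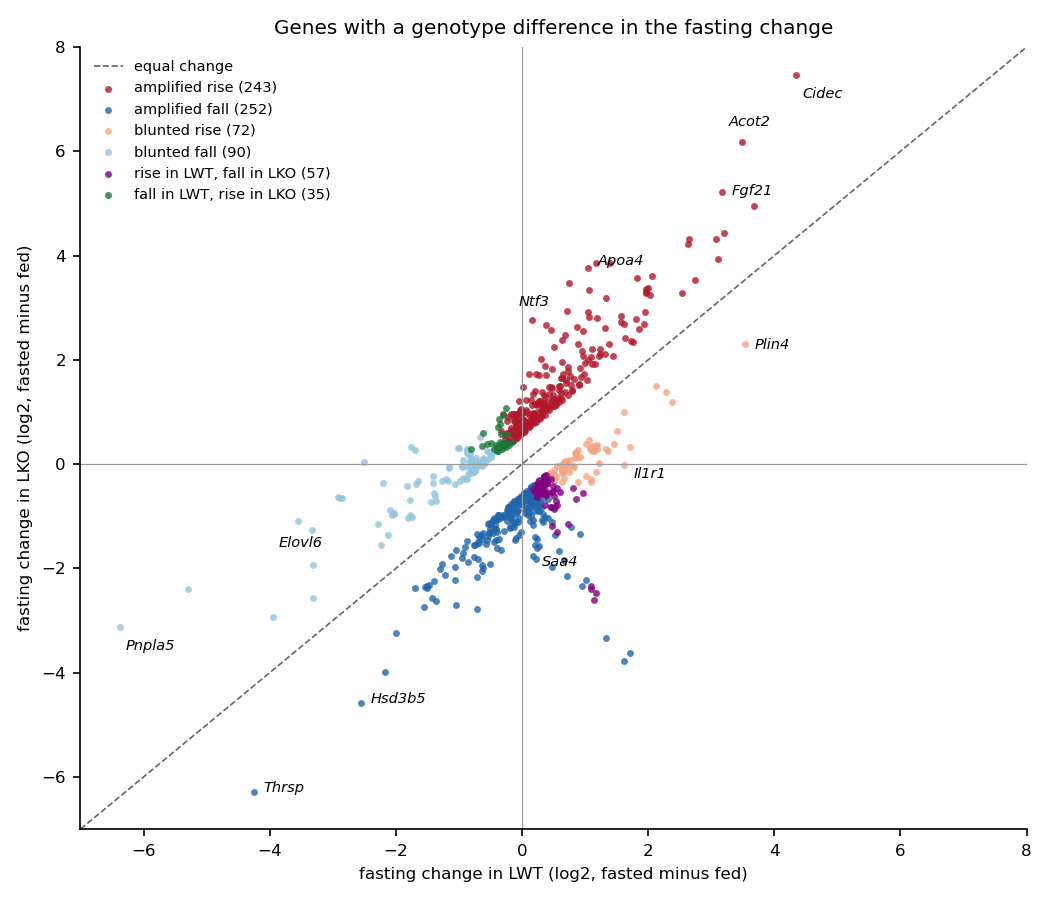
Fasting change in LWT (x axis) against fasting change in LKO (y axis), both as log2 fasted minus fed, for genes with a genotype difference, coloured by class, with the diagonal marking equal changes. Cidec lies far above the diagonal at 4.35 and 7.47, Elovl6 lies above it at -3.55 and -1.10, and Thrsp lies below it at -4.25 and -6.29.

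The median amplified rise was 0.32 in LWT and 1.18 in LKO, and the median amplified fall was -0.02 in LWT and -0.95 in LKO, all on the log2 scale. Blunted rises had medians of 0.78 and -0.02, and blunted falls of -0.95 and -0.08. Among reversed genes the medians were 0.38 and -0.51 for rises that became falls, and -0.33 and 0.37 for falls that became rises. Over all genes tested the median interaction was -0.001. Genotype differences within each feeding state are given beside these as medians of LKO minus LWT. For amplified rises the median difference was -0.20 in fed and 0.69 in fasted mice. For blunted falls it was -0.53 in fed and 0.39 in fasted mice. For amplified falls it was 0.27 in fed and -0.48 in fasted mice, and for blunted rises 0.25 and -0.54.

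**Figure D2:**
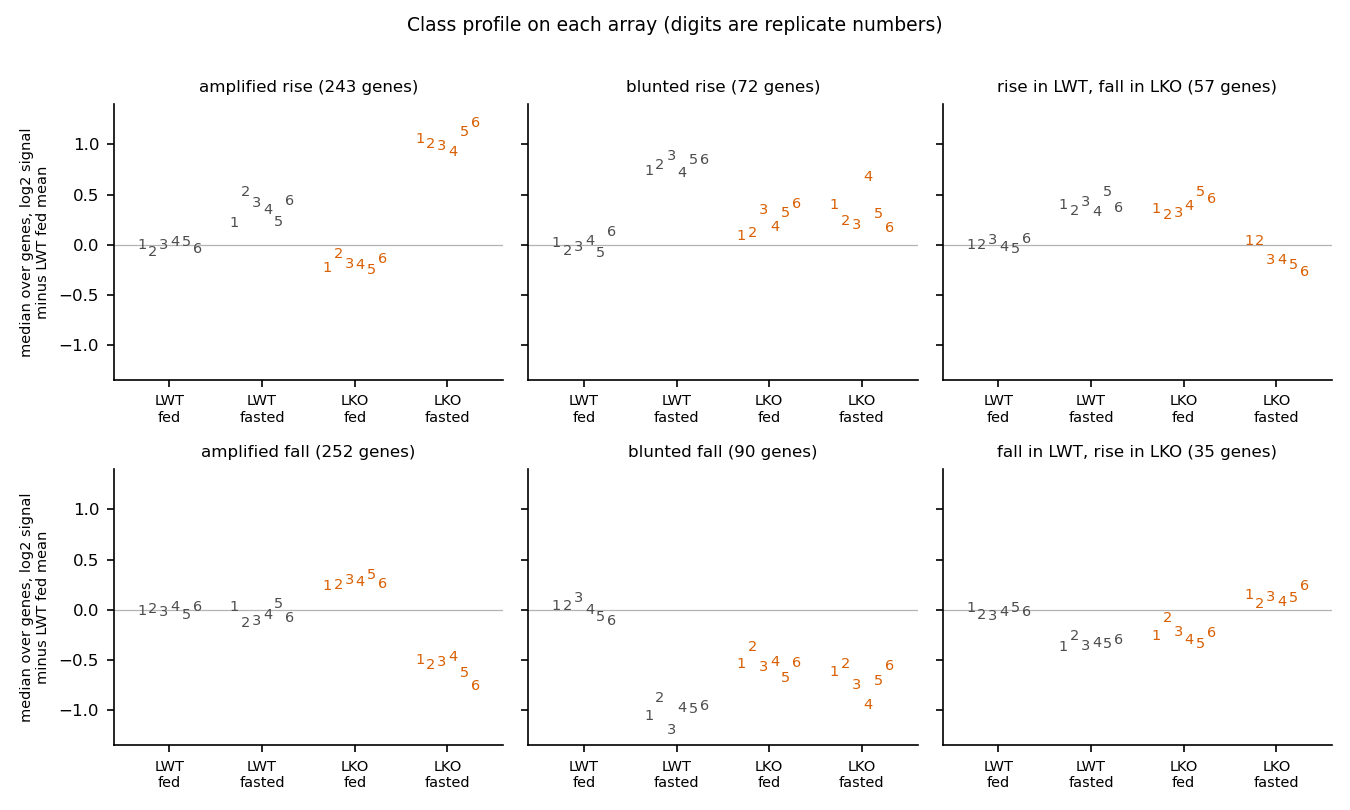
Median over the genes of each class of the log2 signal minus the fed LWT mean, for each array in its group, with digits giving replicate numbers. Amplified rises lie at 0.92 to 1.21 on fasted LKO arrays and at 0.22 to 0.52 on fasted LWT arrays. Reversed rises lie at -0.27 to 0.04 on fasted LKO arrays, which overlaps the fed LWT arrays at -0.04 to 0.06.

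Array by array, the class medians of amplified rises separated fasted LKO (0.92 to 1.21) from fasted LWT (0.22 to 0.52). Blunted rises lay at 0.71 to 0.88 on fasted LWT arrays and at 0.17 to 0.67 on fasted LKO arrays, where replicate 4 was highest. Blunted falls lay at -1.2 to -0.88 on fasted LWT arrays. On fed LKO arrays the same genes were already at -0.68 to -0.37, and they lay at -0.95 to -0.54 on fasted LKO arrays. These positions follow from how the genes were chosen and are given as a description.

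Fasted LKO arrays 1 and 2 stood apart from replicates 3 to 6. On the second principal component they lay at 34.95 and 31.24, near the fed LKO arrays at 19.05 to 29.20, whereas replicates 3 to 6 lay at 1.62 to 3.06. In 68 of the 752 genes (9.0%) both arrays lay above the other 4 of their group by more than 1.5-fold, against 435 genes (2.0%) of all. These were 55 amplified falls, 12 reversed rises and 1 blunted rise, with gaps of 0.6 to 6.17 on the log2 scale. In 64 of the 68 the fed LKO mice were higher than the fed LWT mice with a call, and the median difference was 1.39 in fed and 0.22 in fasted mice. The most negative interaction among the 752 genes, -5.41, was in a probe of this kind for a transcript without a RefSeq symbol, and the rule for named genes left such probes out, except where a gene list held them (Cyp2a5). Without both arrays 1285 genes passed, with the fasting change higher in LKO in 434 and lower in 851, and 675 of the 752 were among them. Without the other 4 arrays of that group 788 genes passed, of which 432 were among the 752. Without replicate 2 alone, amplified changes rose in number from 495 to 762. With the scanner's processed signal in place of the authors' values, 1125 genes passed and 397 were higher and 728 lower, so the near-even split of directions did not hold there.

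**Figure D3:**
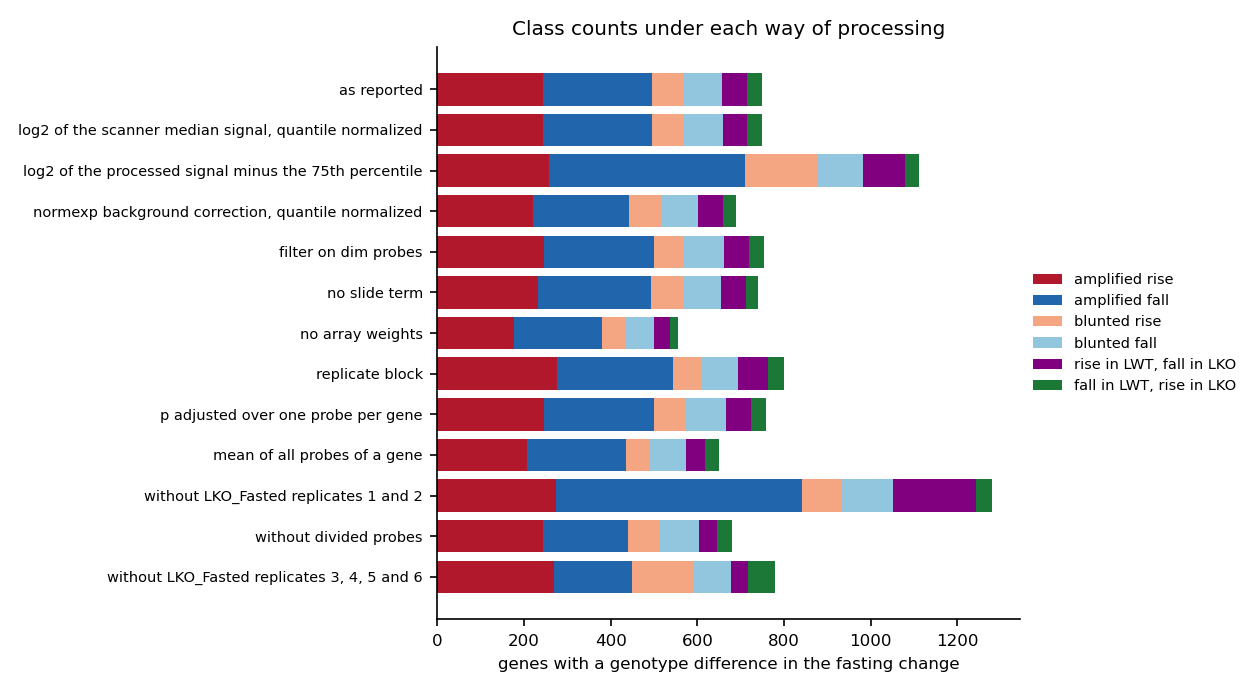
Number of genes in each class (stacked bars, x axis) under each way of processing the arrays (y axis). The total is 752 with the values and model used throughout, 556 without array weights, 1125 with the processed signal and 1285 without fasted LKO replicates 1 and 2.

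Gene lists were read as counts beside the 3.45% of all genes that passed. Lists and members were chosen with earlier results of these data known, so the shares describe the data and are not independent of them. Fatty acid synthesis held the highest share, with 12 of 20 members (60.0%). The 12 include Pnpla5 and Pnpla3, whose fasted signals were mostly not well above background. Among the other pathway lists, leaving out the genes that the study itself named, thioesterases and omega-hydroxylases came next with 5 of 14 (35.7%), then lipid droplet genes with 7 of 21 (33.3%), ketone body genes with 2 of 6 (33.3%) and drug-metabolising P450s with 7 of 26 (26.9%). No member passed among 26 cell cycle, 10 growth arrest, 15 metallothionein and iron and 17 autophagy genes. Below the fold minimum, 1 cell cycle and 4 autophagy genes had an adjusted p of at most 0.05 in limma's test. Of all genes, 10.0% had such an adjusted p at any fold.

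**Figure D4:**
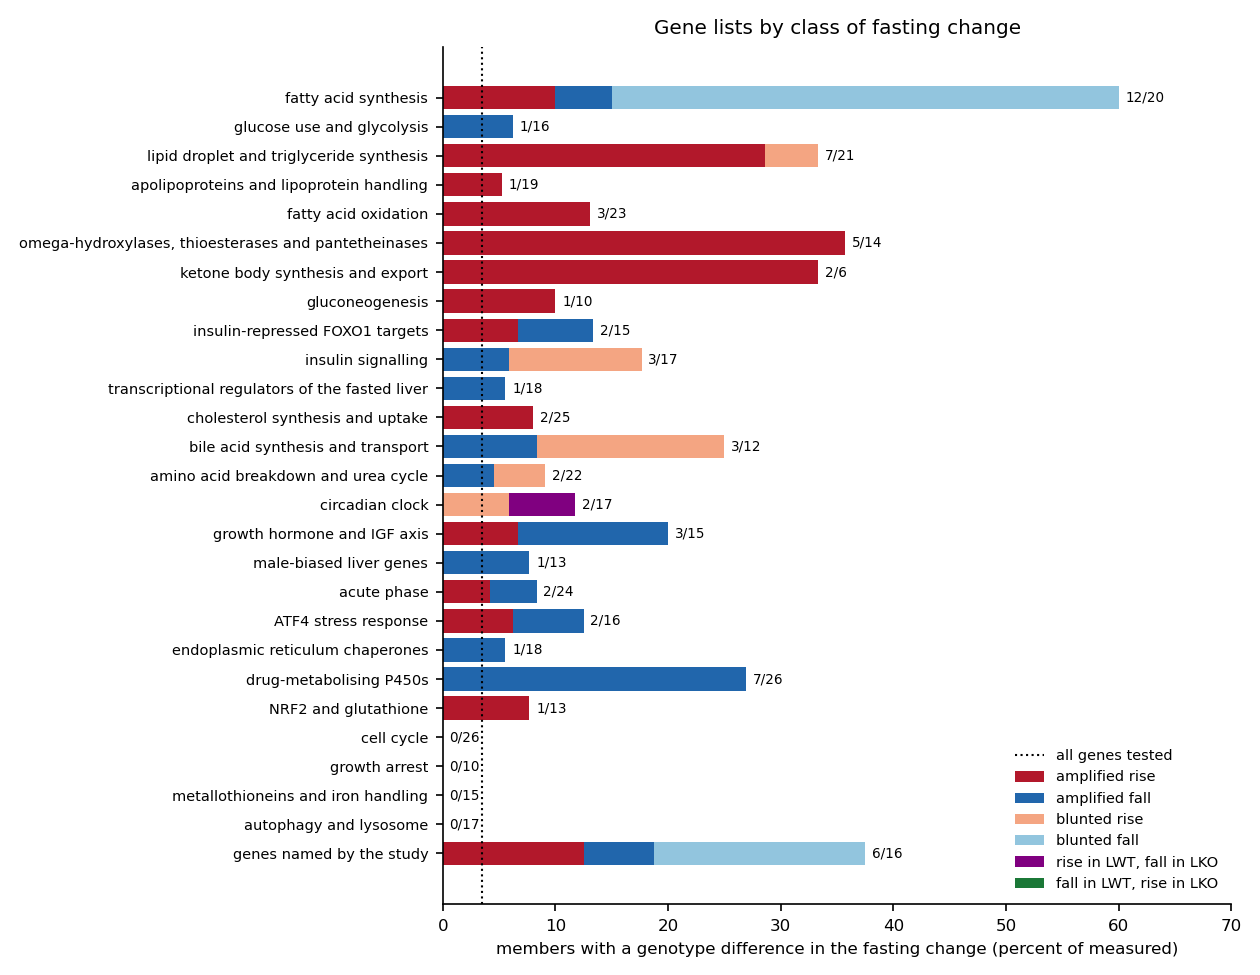
Percent of the measured members of each gene list (y axis) with a genotype difference in the fasting change (x axis), coloured by class. Fatty acid synthesis reaches 60.0%, mostly blunted falls, and the P450s reach 26.9%, all amplified falls. The lists were chosen with earlier results of these data known.

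Of 20 fatty acid synthesis genes 12 passed, and 9 of these were classed as blunted falls. In 7 of the 9 fasting lowered the gene more in LWT than in LKO, and in the other 2, Pnpla5 and Pnpla3, the fasted arrays, all but 1 for Pnpla3, were not well above background and the sizes of the falls cannot be compared. With both genes at their fitted values, the interaction was above 0 in 18 of 20 members with a median of 0.71, against -0.001 over all genes. The median fasting change of the list was -1.72 in LWT and -1.07 in LKO. The median genotype difference was -0.83 in the fed state and -0.03 in the fasted state. The 9 blunted falls were Pnpla5, Pnpla3, Elovl6, Me1, Acacb, Gpam, Fasn, Acaca and Mid1ip1. The list thus also held lipid genes that do not encode enzymes of fatty acid synthesis, among them Pnpla5, Pnpla3 and Gpam.

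Elovl6, the elongase that makes stearate from palmitate, was at 13.87 to 15.26 (median 14.41) in fed LWT, 10.44 to 11.35 (median 10.74) in fasted LWT, 12.98 to 13.43 (median 13.05) in fed LKO and 11.13 to 12.67 (median 12.02) in fasted LKO. All but 1 of the fasted LKO arrays lay above all fasted LWT arrays, while fed LKO arrays lay below all fed LWT arrays. Fasting lowered Elovl6 11.7-fold in LWT and 2.14-fold in LKO (interaction 2.45 ± 0.27 SE, adjusted p = 1.51e-05). The probe lies at chr3:129337756-129337815 in mm9, and the interaction within single slides ran from 2.48 to 2.66.

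Fasn, fatty acid synthase, gave 17.33 to 18.08 (median 17.83) in fed LWT, 13.45 to 14.02 (median 13.82) in fasted LWT, 16.26 to 16.88 (median 16.74) in fed LKO and 13.25 to 14.11 (median 13.72) in fasted LKO. Its fed groups did not overlap and its fasted groups did. The fall was 15.4-fold in LWT and 7.66-fold in LKO, so the interaction (1.0 ± 0.2 SE, adjusted p = 0.00297) lay beside a fed difference of -1.03 and a fasted difference of -0.03. Me1, malic enzyme, which supplies NADPH for lipid synthesis, was at 14.53 to 15.43 (median 14.63) in fed LWT, 12.94 to 13.34 (median 13.02) in fasted LWT, 12.7 to 13.41 (median 13.15) in fed LKO and 11.8 to 13.26 (median 12.81) in fasted LKO. Fed LWT arrays stood above all other arrays of the gene. Fasting lowered Me1 3.12-fold in LWT, and its change in LKO did not pass (-0.33, adjusted p = 0.114, interaction 1.32 ± 0.22 SE, adjusted p = 0.000651).

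Pnpla3 and Pnpla5 belong to the patatin-like lipases, and Pnpla3 is known to be induced by SREBP-1c. Pnpla5 gave 11.41 to 13.0 (median 12.02) in fed LWT, 5.45 to 5.66 (median 5.55) in fasted LWT, 7.37 to 9.69 (median 8.79) in fed LKO and 5.48 to 5.66 (median 5.56) in fasted LKO. No fasted array of either genotype measured it well above background, so its fall was at least 88.1-fold in LWT and at least 7.47-fold in LKO. The sizes of these falls cannot be compared. The fed groups did not overlap, with a genotype difference of -3.29, and the interaction (adjusted p = 6.98e-05) rests on that difference. Pnpla3 was at 10.29 to 11.87 (median 11.14) in fed LWT, 5.46 to 5.86 (median 5.72) in fasted LWT, 6.63 to 8.54 (median 8.25) in fed LKO and 5.42 to 5.73 (median 5.55) in fasted LKO, and no fasted LKO array and 1 fasted LWT array stood well above background. In LKO its fall was at least 4.47-fold. No exact fold is given for LWT, where 5 of 6 fasted arrays were not well above background. The fed groups did not overlap, with a genotype difference of -3.03, and the interaction (adjusted p = 0.000234) likewise rests on it.

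Acaca and Acacb, the acetyl-CoA carboxylases, had interactions of 0.77 (adjusted p = 0.00112) and 1.09 (adjusted p = 0.0239). Acacb fell by 1.16 in LWT and was at -0.06 in LKO. Gpam, which starts glycerolipid synthesis, had an interaction of 1.04 (adjusted p = 0.00594), and Mid1ip1, an activator of acetyl-CoA carboxylase, one of 0.73 (adjusted p = 0.0329). The remaining higher members were amplified rises. Elovl5, an elongase of polyunsaturated fatty acids, changed by 0.23 in LWT and rose by 1.73 in LKO (interaction 1.5, adjusted p = 1.79e-05). Fads2, the delta-6 desaturase, had an interaction of 0.61 (adjusted p = 0.0195).

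Srebf1, the gene of SREBP-1, fell by 2.76 in LWT and by 2.82 in LKO on the log2 scale (interaction -0.06, adjusted p = 0.87). Acly, ATP citrate lyase, had an interaction of 0.58 (adjusted p = 0.0774), and Scd1, the delta-9 desaturase, one of 0.27 (adjusted p = 0.469). A p that misses the threshold does not show equal changes.

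Thrsp, a partner of Mid1ip1 in lipogenesis, went the other way within the same list. Its log2 signal was 17.19 to 18.03 (median 17.6) in fed LWT, 12.61 to 13.82 (median 13.11) in fasted LWT, 15.44 to 16.81 (median 16.52) in fed LKO and 9.79 to 11.17 (median 10.03) in fasted LKO. Every fasted LKO array lay below every fasted LWT array. Fasting lowered Thrsp 19-fold in LWT and 78.2-fold in LKO (interaction -2.04 ± 0.32 SE, adjusted p = 0.000444), and a second probe passed in the same direction.

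Of 16 glucose use and glycolysis genes 1 passed, with a lower fasting change in LKO than in LWT. An adjusted p of at most 0.05 was found in 8, against 10.0% of all genes. The interaction was above 0 in 8 of 16, with a median of -0.02. Pklr, liver pyruvate kinase, fell by 2.33 in LWT and by 2.5 in LKO (interaction -0.18, adjusted p = 0.715). Gapdh, Eno1 and Tpi1 of glycolysis had interactions of 0.3 to 0.44 with adjusted p-values of at most 0.0127, under the fold minimum.

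Of 21 lipid droplet genes 6 were amplified rises, namely Cidec, Hilpda, G0s2, Plin2, Mgll and Fitm2, and Plin4 was a blunted rise. The list's median fasting change was 0.64 in LWT and 0.89 in LKO.

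Cidec, also called Fsp27, which drives fusion of lipid droplets, gave 8.41 to 10.02 (median 9.17) in fed LWT, 12.86 to 14.36 (median 13.65) in fasted LWT, 7.31 to 7.96 (median 7.54) in fed LKO and 13.75 to 15.49 (median 15.01) in fasted LKO. It was below all LWT arrays in fed LKO and reached the highest values in fasted LKO. The fasting rise was 20.3-fold in LWT and 177-fold in LKO (interaction 3.12 ± 0.34 SE, adjusted p = 1.53e-05). LKO was 3.09-fold lower than LWT in the fed state and 2.82-fold higher in the fasted state. The probe lies at chr6:113374693-113374752 in mm9, and the interaction ran from 2.05 to 4.32 within single slides.

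Plin2, the main lipid droplet coat protein of hepatocytes, was at 14.76 to 15.44 (median 14.83) in fed LWT, 16.05 to 16.66 (median 16.51) in fasted LWT, 14.22 to 14.58 (median 14.27) in fed LKO and 16.48 to 17.55 (median 17.08) in fasted LKO. Its fed groups were apart with LKO lower, and its fasted groups overlapped with LKO higher. Fasting raised it 2.97-fold in LWT and 7.12-fold in LKO (interaction 1.26 ± 0.17 SE, adjusted p = 0.000134). G0s2, an inhibitor of adipose triglyceride lipase, had a fasted difference of 0.01 (adjusted p = 0.983) and a fed one of -1.53 (adjusted p = 0.000461). Its rise was 4.16-fold in LWT and 12.1-fold in LKO (interaction 1.55 ± 0.4 SE, adjusted p = 0.0191). Hilpda, another inhibitor of that lipase, rose 1.55-fold and 5.22-fold (interaction 1.75 ± 0.34 SE, adjusted p = 0.00253).

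Plin4, a coat protein of nascent droplets, was at 9.37 to 9.78 (median 9.72) in fed LWT, 12.76 to 13.59 (median 13.15) in fasted LWT, 8.61 to 9.57 (median 8.97) in fed LKO and 10.61 to 11.99 (median 11.29) in fasted LKO. All fasted LKO arrays lay below all fasted LWT arrays. Its rise was 11.6-fold in LWT and 4.96-fold in LKO (interaction -1.23 ± 0.26 SE, adjusted p = 0.0049). Plin5 rose by 1.99 in LWT and by 2.04 in LKO and did not pass. Of 5 adipose tissue markers 0 passed, with interactions of -0.22 to 0.16 in Adipoq, Lep, Retn, Plin1 and Cfd. Their summed level was 9.20 to 10.38 in fed LWT, 8.85 to 12.45 in fasted LWT, 8.75 to 8.95 in fed LKO and 8.69 to 9.21 in fasted LKO. The fed groups did not overlap, with LKO the lower, and the fasted groups did. The part of adipose tissue in the values of Cidec, Plin4 and Slc2a4, which adipocytes also express, was not tested.

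Apoa4, an apolipoprotein of triglyceride-rich particles, was the 1 of 19 lipoprotein genes that passed. It gave 14.7 to 15.66 (median 15.36) in fed LWT, 15.77 to 16.89 (median 16.35) in fasted LWT, 13.07 to 13.82 (median 13.22) in fed LKO and 16.86 to 17.35 (median 17.07) in fasted LKO. Fed LKO arrays lay below all fed LWT arrays, and all but 1 of the fasted LKO arrays lay above all fasted LWT arrays. Fasting raised it 2.07-fold in LWT and 13.5-fold in LKO (interaction 2.71 ± 0.2 SE, adjusted p = 9.82e-08). Over single slides its interaction ran from 2.08 to 3.1. Apoc2, the activator of lipoprotein lipase, and Mttp, which loads lipid onto apolipoprotein B, had interactions of 0.58 (adjusted p = 0.000357) and 0.52 (adjusted p = 0.000602), below the fold minimum.

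Among 23 fatty acid oxidation genes the interaction was above 0 in 22, with a median of 0.38. It had an adjusted p of at most 0.05 in 13, against 10.0% of all genes. Of the 13, 3 exceeded the fold minimum, namely Ehhadh, Acaa1b and Crat. The median fasting change was 0.78 in LWT and 1.21 in LKO. Cpt1a, which admits fatty acids to mitochondria, rose by 1.27 and 1.65 (interaction 0.38, adjusted p = 0.0238).

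Ehhadh, the bifunctional enzyme of peroxisomal oxidation, was at 12.74 to 13.51 (median 12.9) in fed LWT, 14.85 to 15.9 (median 15.68) in fasted LWT, 12.37 to 12.99 (median 12.69) in fed LKO and 15.84 to 17.31 (median 16.95) in fasted LKO. Fasted LKO arrays were the highest, with some overlap with fasted LWT. It rose 6.21-fold in LWT and 18.7-fold in LKO (interaction 1.59 ± 0.26 SE, adjusted p = 0.000559). Acaa1b, a peroxisomal thiolase, rose 1.54-fold and 3.86-fold (interaction 1.32 ± 0.22 SE, adjusted p = 0.000858). Crat, carnitine acetyltransferase, rose 3.63-fold and 6-fold (interaction 0.72 ± 0.21 SE, adjusted p = 0.0317), and its call was lost in 8 of 24 omissions of one array and without array weights. A second Crat probe had an interaction of 0.45 (adjusted p = 0.0446), under the fold minimum.

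Acyl-CoA thioesterases, which release fatty acids from coenzyme A, gave 4 of the 5 calls in their list, and Aldh3a2, a fatty aldehyde dehydrogenase, gave the other (interaction 1.05, adjusted p = 0.0307). Acot2 of mitochondria was at 8.01 to 9.08 (median 8.56) in fed LWT, 11.37 to 12.38 (median 12.11) in fasted LWT, 7.02 to 8.61 (median 7.73) in fed LKO and 12.16 to 14.53 (median 14.09) in fasted LKO. It was highest in fasted LKO, where replicate 4 lay within the fasted LWT range. Its rise was 11.2-fold in LWT and 72.3-fold in LKO (interaction 2.7 ± 0.39 SE, adjusted p = 0.000194). Acot1, Acot4 and Acot5 had interactions of 2.34-fold, 2.11-fold and 2.42-fold, with adjusted p-values of 0.0139, 0.0241 and 0.0155. The 4 genes lie close together on chromosome 12 and have similar sequences, so their probes may share signal. A second Acot5 probe had an interaction of 0.24 (adjusted p = 0.694) and a second Acot4 probe one of 0.84 (adjusted p = 0.0701). Acot5 lost its call with the mean of its probes. Acot1, Acot4 and Acot5 all lost theirs without array weights, and Acot4 also without fed LKO replicate 1 and without fed LWT replicate 4.

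The Cyp4a omega-hydroxylases, classical PPARα targets, rose strongly in both genotypes without a difference that passed. Cyp4a14 rose by 5.49 in LWT and by 5.35 in LKO (interaction -0.14, adjusted p = 0.887), and Cyp4a10 by 4.56 and 4.86 (interaction 0.30, adjusted p = 0.749). Ppara itself changed by 0.89 and 0.87. The regulators of the fasted liver as a list had 1 of 18 called, Klf15.

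Among ketone body genes, Slc16a1, the monocarboxylate transporter MCT1, rose 1.62-fold in LWT and 2.94-fold in LKO (interaction 0.86 ± 0.13 SE, adjusted p = 0.000239). Bdh1, which makes β-hydroxybutyrate, did not pass in LWT (-0.06) and rose 1.59-fold in LKO (interaction 0.73 ± 0.17 SE, adjusted p = 0.00903), a call that was lost without array weights. The interaction was above 0 in 6 of 6 members.

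Fgf21, a fasting hormone secreted by the liver, was at 7.45 to 8.38 (median 7.92) in fed LWT, 10.04 to 11.94 (median 10.99) in fasted LWT, 6.13 to 7.17 (median 6.67) in fed LKO and 11.47 to 12.31 (median 11.93) in fasted LKO. Fed LKO arrays lay below all fed LWT arrays. Fasting raised Fgf21 9.03-fold in LWT and 37.1-fold in LKO (interaction 2.04 ± 0.36 SE, adjusted p = 0.00109), with a fed difference of -1.19 and a fasted difference of 0.85. It was 1 of 2 called among 16 ATF4 response genes. Ddit4, an inhibitor of mTORC1, was the other and went down (interaction -1.4 ± 0.43 SE, adjusted p = 0.0445), and its call was lost in 20 of 24 omissions of one array.

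Gluconeogenic genes gave 1 call in 10. Pdk4, which spares pyruvate from oxidation, was at 9.13 to 10.0 (median 9.55) in fed LWT, 10.91 to 13.24 (median 11.86) in fasted LWT, 8.57 to 9.27 (median 9.04) in fed LKO and 12.25 to 13.84 (median 13.37) in fasted LKO. The fasted groups overlapped and the fed groups overlapped. Its rise was 6.24-fold in LWT and 20-fold in LKO (interaction 1.68 ± 0.48 SE, adjusted p = 0.0293), and the call was lost in 6 of 24 omissions of one array. Pck1, the key gluconeogenic enzyme, rose by 1.60 in LWT and by 0.79 in LKO (interaction -0.81, adjusted p = 0.0755), and G6pc had an interaction of -0.10 (adjusted p = 0.833).

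Insulin signalling genes had 3 calls in 17, all with a lower fasting change in LKO than in LWT. Foxo1, the transcription factor that AKT keeps out of the nucleus, was at 11.68 to 11.92 (median 11.74) in fed LWT, 12.25 to 12.86 (median 12.51) in fasted LWT, 11.46 to 12.2 (median 11.8) in fed LKO and 11.59 to 12.03 (median 11.93) in fasted LKO. Every fasted LKO array lay below every fasted LWT array, and the fed groups overlapped. It rose 1.64-fold in LWT, and its change in LKO did not pass (interaction -0.66 ± 0.16 SE, adjusted p = 0.01). Its fold fell below the minimum without fed LKO replicate 5, where the interaction was -0.58, and on a second probe with the same value (adjusted p = 0.0195). Irs1, an insulin receptor substrate, did not pass in LWT and fell 1.34-fold in LKO (interaction -0.65 ± 0.16 SE, adjusted p = 0.0115).

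FOXO1 targets that insulin represses had 2 calls in 15, in opposite directions, Pdk4 and Klf15. Klf15, a factor of amino acid breakdown, fell 1.49-fold in LKO with no passing change in LWT (interaction -0.81 ± 0.22 SE, adjusted p = 0.0242). That call was lost without fasted LKO replicate 6, fasted LWT replicate 3 or fed LWT replicate 5, and without array weights. Igfbp1 rose by 1.98 and 1.73 (interaction -0.25, adjusted p = 0.781) and Irs2 by 2.61 and 1.92 (interaction -0.69, adjusted p = 0.158). Among 16 genes that the study itself named from these samples, a list that is not independent of them, 6 passed, among them Cidec, Pnpla3, Fgf21, Me1 and Fasn.

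Bile acid and sterol transport had 3 calls in 12. Abcg5 and Abcg8 together form the transporter of cholesterol into bile. Abcg5 was at 12.83 to 13.35 (median 13.07) in fed LWT, 13.62 to 14.31 (median 13.76) in fasted LWT, 12.97 to 13.48 (median 13.19) in fed LKO and 12.4 to 13.57 (median 13.08) in fasted LKO, with the fasted groups apart. It rose 1.54-fold in LWT with no passing change in LKO (interaction -0.97 ± 0.2 SE, adjusted p = 0.004). Abcg8 rose 2.26-fold in LWT and 1.28-fold in LKO (interaction -0.82 ± 0.16 SE, adjusted p = 0.00263). Cyp27a1 of bile acid synthesis was the other call (interaction -0.59 ± 0.14 SE, adjusted p = 0.00924), and it lost its call in 13 of 24 omissions of one array.

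Of 25 cholesterol synthesis and uptake genes 2 passed, and the median fasting change of the list was -1.41 in LWT and -1.18 in LKO. Insig2, which retains SREBP in the endoplasmic reticulum, rose 3.82-fold in LWT and 6.42-fold in LKO (interaction 0.75 ± 0.17 SE, adjusted p = 0.0075). Hsd17b7, a sterol synthesis enzyme, did not pass in LWT and rose 2.26-fold in LKO (interaction 0.84 ± 0.22 SE, adjusted p = 0.019).

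Among 26 drug-metabolising P450s the interaction was below 0 in all but 1, with a median of -0.34. The 7 that passed were amplified falls (Cyp2a4, Cyp1a2, Cyp2a5, Cyp2d22, Cyp2c37, Cyp2c54 and Cyp2c50). Cyp2d22 was at 10.31 to 11.14 (median 10.45) in fed LWT, 10.23 to 10.94 (median 10.6) in fasted LWT, 10.21 to 10.69 (median 10.53) in fed LKO and 9.5 to 9.88 (median 9.72) in fasted LKO. All fasted LKO arrays lay below all arrays of the other groups. It fell 1.69-fold in LKO with no passing change in LWT (interaction -0.89 ± 0.13 SE, adjusted p = 0.000239). Cyp1a2, which metabolises caffeine, fell 1.36-fold in LWT and 2.83-fold in LKO (interaction -1.06 ± 0.2 SE, adjusted p = 0.00199).

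The near-identical genes Cyp2a4 and Cyp2a5, coumarin hydroxylases whose probes may share signal, had interactions of -1.07 ± 0.31 SE, adjusted p = 0.0307, and -1.02 ± 0.27 SE, adjusted p = 0.0215. Cyp2a4 lost its call in 6 of 24 omissions of one array, and Cyp2a5 without fasted LKO replicates 5 or 6. Fasted LKO arrays 1 and 2 lay above the other 4 for both genes, at 16.27 and 16.31 against 15.14 to 15.83 for Cyp2a4 and at 17.01 and 17.03 against 15.81 to 16.40 for Cyp2a5. Cyp2e1 and Cyp3a11 did not pass, with interactions of -0.13 and -0.29.

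Amino acid breakdown had 2 calls in 22, both with a lower fasting change in LKO than in LWT and both markers of periportal hepatocytes. Hal, histidine ammonia-lyase, fell 1.86-fold in LKO with no passing change in LWT (interaction -1.16 ± 0.23 SE, adjusted p = 0.0037). Sds, serine dehydratase, rose 2.75-fold in LWT, and its change in LKO did not pass (interaction -1.08 ± 0.29 SE, adjusted p = 0.0217). Sds was highest on fasted LKO replicate 4 and lost its call without fed LWT replicate 5, with an adjusted p of 0.0566. Its genotype difference was 0.57 in fed mice (adjusted p = 0.041) and -0.50 in fasted mice (adjusted p = 0.0984), and a second Sds probe had an interaction of -0.69 (adjusted p = 0.0848). Both genes lost their call without array weights, while a second Hal probe passed (interaction -1.47, adjusted p = 0.000683) as a reversed rise, with changes of 0.49 in LWT and -0.98 in LKO. Among 8 periportal markers those 2 passed and no other, and Cyp1a2 was the 1 call among 10 pericentral markers.

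Lepr, Lifr and Igfals, from the list of the growth hormone axis, were further amplified changes. Lepr, the leptin receptor, was at 9.2 to 9.78 (median 9.48) in fed LWT, 9.53 to 10.78 (median 9.88) in fasted LWT, 10.18 to 10.55 (median 10.26) in fed LKO and 12.21 to 13.15 (median 12.54) in fasted LKO. All LKO arrays lay above all LWT arrays within each state. It rose 1.41-fold in LWT, under the fold minimum, and 4.76-fold in LKO (interaction 1.75 ± 0.23 SE, adjusted p = 0.000108), and 3 of its 4 other probes passed the same way. Lifr, the receptor of leukaemia inhibitory factor, fell 1.88-fold in LKO with no passing change in LWT (interaction -0.73 ± 0.19 SE, adjusted p = 0.019). Its other probes had interactions of -0.45 and -0.39 that did not pass, and its call was lost with the mean of its probes. Igfals, a carrier of IGF-1, was the last of 3 calls among 15 genes of the growth hormone axis (interaction -0.6 ± 0.18 SE, adjusted p = 0.0435) and lost its call in 16 of 24 omissions.

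Hsd3b5, a male-biased steroid dehydrogenase, was the 1 call among 13 male-biased genes. Its values were 14.1 to 14.73 (median 14.51) in fed LWT, 10.92 to 12.61 (median 11.84) in fasted LWT, 14.03 to 14.72 (median 14.58) in fed LKO and 8.66 to 11.02 (median 9.68) in fasted LKO. Fed groups overlapped, and fasted LKO was lowest with a slight overlap with fasted LWT. The fall was 5.88-fold in LWT and 24-fold in LKO (interaction -2.03 ± 0.46 SE, adjusted p = 0.00831), and it ran from -3.78 to -0.5 over single slides.

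Acute phase genes gave 2 calls in 24, in opposite directions. Saa4, the constitutive serum amyloid A, was at 13.31 to 13.68 (median 13.58) in fed LWT, 13.1 to 14.23 (median 13.69) in fasted LWT, 12.83 to 13.83 (median 13.25) in fed LKO and 10.97 to 12.05 (median 11.66) in fasted LKO. All fasted LKO arrays lay below the arrays of the other 3 groups. It fell 3.39-fold in LKO with no passing change in LWT (interaction -1.93 ± 0.27 SE, adjusted p = 0.000181). Il1rn, the antagonist of the interleukin-1 receptor, was at 5.63 to 7.14 (median 5.86) in fed LWT, 6.49 to 7.9 (median 7.38) in fasted LWT, 5.81 to 6.2 (median 6.01) in fed LKO and 8.55 to 9.6 (median 9.28) in fasted LKO, and in fed LWT only 2 of 6 arrays stood well above background. It rose 9.04-fold in LKO, where 5 of 6 fed arrays stood well above background. The change in LWT passed, but no exact fold is given for it (interaction 1.85 ± 0.3 SE, adjusted p = 0.000651 as fitted).

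Il1r1, the receptor that Il1rn blocks, led the blunted rises. It gave 9.76 to 10.53 (median 10.3) in fed LWT, 11.48 to 12.19 (median 11.86) in fasted LWT, 10.02 to 11.16 (median 10.38) in fed LKO and 10.13 to 10.91 (median 10.55) in fasted LKO. Fasted LWT arrays lay above all others. Il1r1 rose 3.07-fold in LWT and was at -0.02 in LKO (interaction -1.64 ± 0.25 SE, adjusted p = 0.000377). Herpud1, of the degradation machinery of the endoplasmic reticulum, was the 1 call among 18 chaperone genes (interaction -0.9 ± 0.22 SE, adjusted p = 0.0147), and Srxn1, sulfiredoxin, the 1 call among 13 NRF2 genes (interaction 1.08 ± 0.14 SE, adjusted p = 6.98e-05). Srxn1 rose 2.09-fold in LKO alone, and all fasted LKO arrays lay above the arrays of the other groups.

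**Figure D5:**
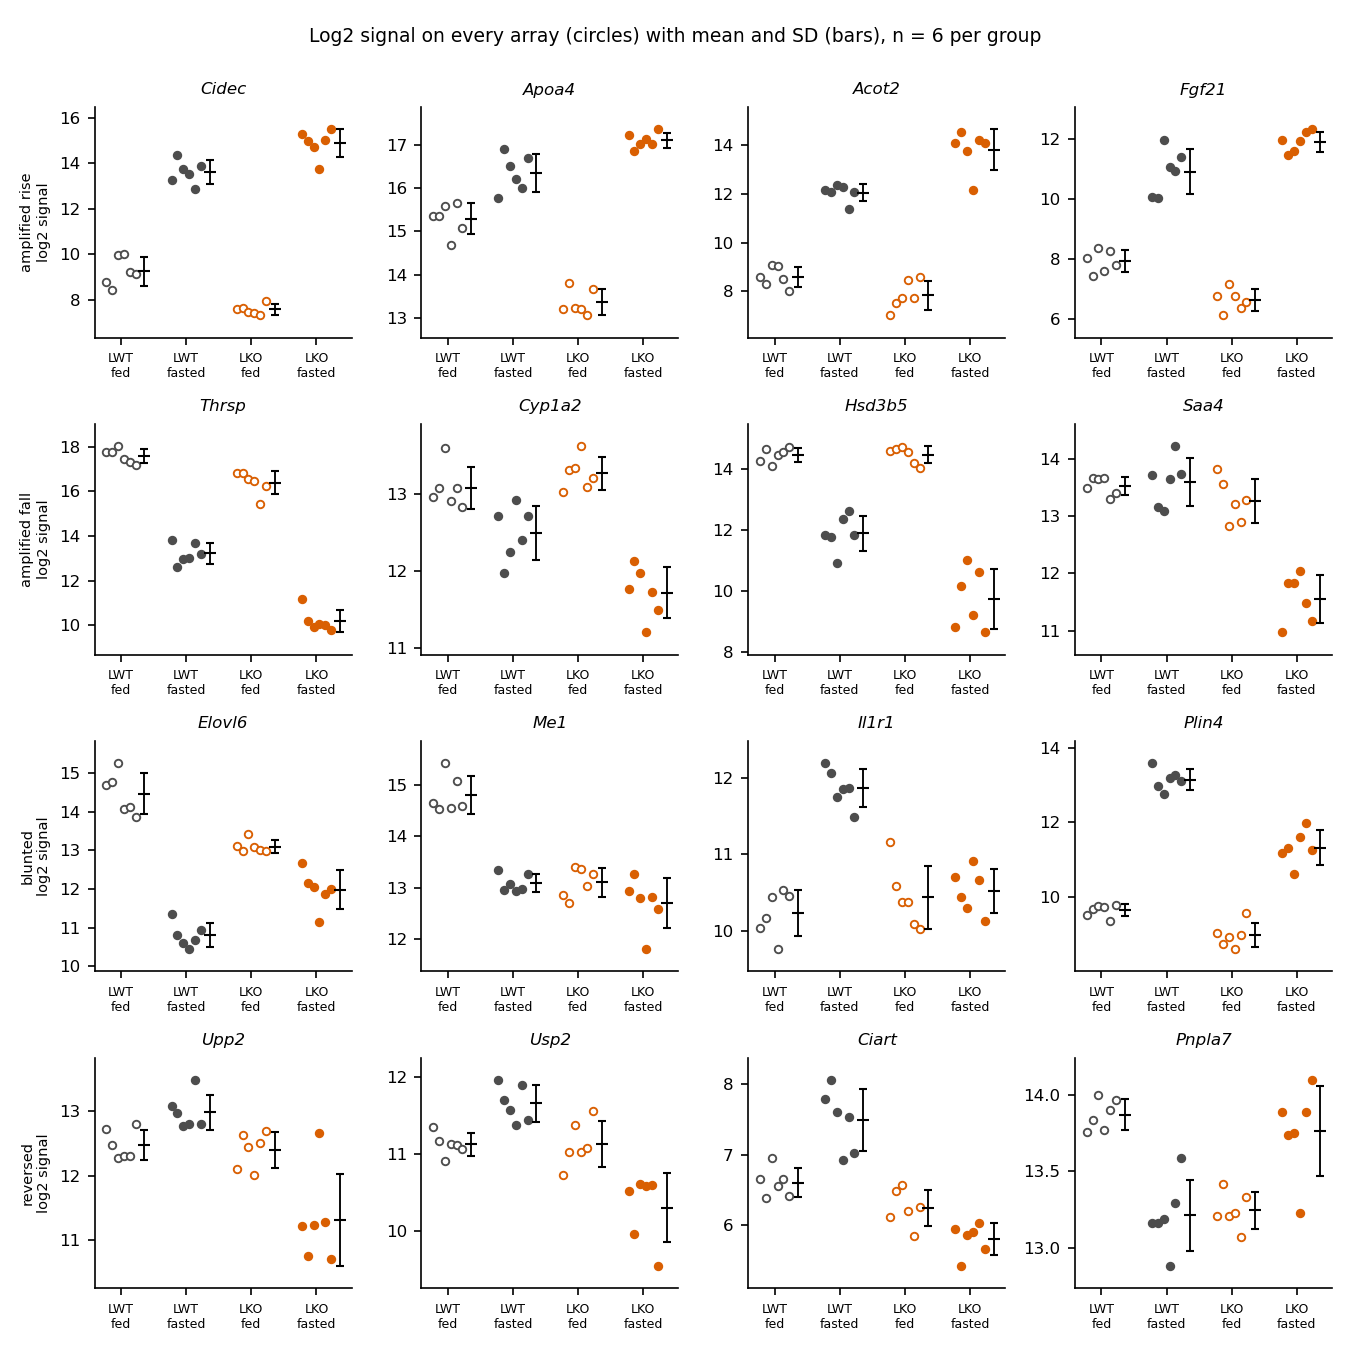
Log2 signal on every array (circles) with mean and SD (bars) for 16 genes in the 4 groups, n = 6. Top to bottom, the plots show amplified rises, amplified falls, blunted changes and reversed changes, among them Cidec, highest in fasted LKO at 13.75 to 15.49, and Il1r1, highest in fasted LWT at 11.48 to 12.19.

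Among genes that rose in LWT and fell in LKO, Upp2, uridine phosphorylase, was at 12.28 to 12.81 (median 12.39) in fed LWT, 12.77 to 13.49 (median 12.89) in fasted LWT, 12.01 to 12.7 (median 12.48) in fed LKO and 10.7 to 12.67 (median 11.22) in fasted LKO. All fasted LKO arrays lay below all fasted LWT arrays, with replicate 4 close to them. It rose 1.39-fold in LWT and fell 2.29-fold in LKO (interaction -1.67 ± 0.27 SE, adjusted p = 0.00057). Interactions of -1.62 to -1.05 passed on its 3 other probes, which fell in LKO with no passing rise in LWT. Usp2, a ubiquitin protease under clock control, was at 10.9 to 11.35 (median 11.13) in fed LWT, 11.37 to 11.96 (median 11.63) in fasted LWT, 10.72 to 11.56 (median 11.04) in fed LKO and 9.54 to 10.61 (median 10.55) in fasted LKO, with LKO below LWT on all fasted arrays. It rose 1.38-fold in LWT and fell 1.77-fold in LKO (interaction -1.29 ± 0.23 SE, adjusted p = 0.00136), and a second probe (interaction -1.10, adjusted p = 0.00263) fell in LKO with no passing rise in LWT.

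Ciart, a repressor of CLOCK and BMAL1, gave 6.38 to 6.95 (median 6.6) in fed LWT, 6.92 to 8.06 (median 7.57) in fasted LWT, 5.85 to 6.57 (median 6.23) in fed LKO and 5.42 to 6.03 (median 5.88) in fasted LKO. The fasted LKO arrays lay below all fasted LWT arrays, and 3 of 6 stood well above background. It rose 1.74-fold in LWT and fell 1.38-fold in LKO as fitted (interaction -1.27 ± 0.22 SE, adjusted p = 0.00101). A second Ciart probe did not pass. Of 17 clock genes measured 2 passed, and the interaction was above 0 in 2. Hlf, a PAR bZIP factor, was the other (interaction -0.59 ± 0.15 SE, adjusted p = 0.0189), and its call was lost in 11 of 24 omissions. Per1 had an interaction of -0.83 (adjusted p = 0.0874), and Arntl and Nr1d1 had -0.22 and -0.07.

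Other reversed rises were Sult1d1, a sulfotransferase (1.82-fold up in LWT, 1.59-fold down in LKO, interaction -1.53 ± 0.28 SE, adjusted p = 0.00178), and Slco1a4, an organic anion transporter (1.96-fold up, 1.47-fold down, interaction -1.53 ± 0.25 SE, adjusted p = 0.000707). The fasted groups overlapped for both, by fasted LKO replicate 4 alone for Sult1d1, whereas 4 of 6 fasted LKO arrays lay within the fasted LWT range for Slco1a4. Fam214a was at 10.3 to 11.02 (median 10.95) in fed LWT, 11.04 to 11.51 (median 11.38) in fasted LWT, 10.41 to 11.23 (median 10.59) in fed LKO and 9.4 to 10.02 (median 9.83) in fasted LKO. Each fasted LKO array lay below the arrays of the other groups. It rose 1.42-fold and fell 1.82-fold (interaction -1.38 ± 0.21 SE, adjusted p = 0.000331), and 1 of 2 other probes passed the same way.

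Among genes that fell in LWT and rose in LKO, Pnpla7, a lysophospholipase, was at 13.76 to 14.0 (median 13.87) in fed LWT, 12.88 to 13.59 (median 13.18) in fasted LWT, 13.07 to 13.42 (median 13.22) in fed LKO and 13.23 to 14.1 (median 13.82) in fasted LKO. Fed LWT arrays lay above all fed LKO arrays, and the fasted groups overlapped with the higher median in LKO. It fell 1.53-fold in LWT and rose 1.51-fold in LKO (interaction 1.21 ± 0.14 SE, adjusted p = 3.77e-05). Tubb2a, a β-tubulin, fell 1.23-fold in LWT and rose 1.93-fold in LKO (interaction 1.25 ± 0.18 SE, adjusted p = 0.000194). Its copy Tubb2a-ps2 (interaction 1.11 ± 0.19 SE, adjusted p = 0.00101) may share signal with it. Kbtbd12 fell 1.28-fold and rose 1.81-fold (interaction 1.22 ± 0.2 SE, adjusted p = 0.000683), and of 2 other probes 1 passed as an amplified rise and 1 lay under the fold minimum.

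Csf2rb, the shared receptor subunit for GM-CSF, interleukin-3 and interleukin-5, which is mostly known from myeloid cells, was at 9.6 to 9.82 (median 9.67) in fed LWT, 9.22 to 9.67 (median 9.46) in fasted LWT, 9.2 to 9.89 (median 9.38) in fed LKO and 10.07 to 10.95 (median 10.45) in fasted LKO. Each fasted LKO array lay above the arrays of the other groups. It rose 2.11-fold in LKO after a 1.2-fold fall in LWT (interaction 1.34 ± 0.16 SE, adjusted p = 3.77e-05). Of 2 other Csf2rb probes 1 passed as an amplified rise (interaction 0.84) and 1 did not pass (0.01). The summed level of 13 Kupffer and myeloid markers was 15.73 to 16.17 in fed LWT, 14.92 to 16.20 in fasted LWT, 15.32 to 16.10 in fed LKO and 15.03 to 16.93 in fasted LKO. The ranges overlapped, and their part in the changes of Csf2rb, Il1rn and Cd14 was not tested.

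Ntf3 and Hrob were large amplified rises outside these lists. Ntf3, neurotrophin-3, was at 6.46 to 7.21 (median 6.61) in fed LWT, 6.56 to 7.47 (median 6.78) in fasted LWT, 6.88 to 8.11 (median 7.27) in fed LKO and 9.45 to 10.94 (median 10.19) in fasted LKO. Only fasted LKO arrays stood high, and they lay above all others. It rose 6.83-fold in LKO with no passing change in LWT (interaction 2.62 ± 0.3 SE, adjusted p = 2.4e-05). Hrob, a factor of homologous recombination, was at 5.94 to 6.27 (median 6.14) in fed LWT, 6.32 to 7.8 (median 6.94) in fasted LWT, 5.51 to 6.11 (median 5.92) in fed LKO and 7.41 to 9.77 (median 9.34) in fasted LKO, and 3 of 6 fed LKO arrays stood well above background. It rose 1.67-fold in LWT and 11.1-fold in LKO as fitted (interaction 2.73 ± 0.31 SE, adjusted p = 1.79e-05).

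Among amplified falls, Clec2h, a C-type lectin, fell 6.9-fold as fitted in LKO, where 3 of 6 fasted arrays stood well above background (interaction -2.08 ± 0.48 SE, adjusted p = 0.00882). Hddc3, an HD domain hydrolase, ranged widely in fasted LWT and in fed LKO, at 6.0 to 6.51 (median 6.35) in fed LWT, 6.1 to 8.37 (median 7.2) in fasted LWT, 6.04 to 8.12 (median 7.92) in fed LKO and 5.99 to 6.25 (median 6.15) in fasted LKO. All groups overlapped. Its change in LWT did not pass (0.78), and it fell 2.3-fold in LKO (interaction -1.98 ± 0.52 SE, adjusted p = 0.0198).

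Among further blunted rises, Adora1, the adenosine A1 receptor, rose 1.84-fold in LWT, and its change in LKO did not pass (interaction -1.22 ± 0.24 SE, adjusted p = 0.00346). A second Adora1 probe had fasting changes of 0.11 and 0.16 (interaction 0.05, adjusted p = 0.883). The transcript AA986860 rose 2.26-fold in LWT (interaction -1.32 ± 0.4 SE, adjusted p = 0.0425) and lost its call in 15 of 24 omissions of one array.

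Blunted falls outside fatty acid synthesis included Fabp5, a fatty acid binding protein, at 13.79 to 15.55 (median 15.27) in fed LWT, 10.95 to 13.08 (median 12.14) in fasted LWT, 12.55 to 15.2 (median 14.02) in fed LKO and 11.96 to 14.19 (median 13.66) in fasted LKO. All groups but fed and fasted LWT overlapped. It fell 7.53-fold in LWT with no passing change in LKO (interaction 2.28 ± 0.62 SE, adjusted p = 0.0232), and it lost its call without fasted LKO replicates 5 or 6. Slc2a4, the insulin-responsive glucose transporter GLUT4, was at 8.57 to 10.02 (median 9.26) in fed LWT, 5.63 to 6.01 (median 5.76) in fasted LWT, 7.01 to 8.09 (median 7.67) in fed LKO and 5.6 to 5.91 (median 5.73) in fasted LKO. The fasted groups overlapped near background, with 3 of 6 LWT and 4 of 6 LKO arrays well above it, so no exact fold is given. It fell in both genotypes, and the interaction (1.36 ± 0.28 SE, adjusted p = 0.00456) rests on the fed groups, which did not overlap. The X-linked neighbours Xlr4b and Xlr3b, whose probes may share signal, fell 3.39-fold and 3.25-fold in LWT with no passing change in LKO (interactions 2.09 ± 0.49 SE, adjusted p = 0.00943, and 1.98 ± 0.45 SE, adjusted p = 0.00848). A second Xlr4b probe did not pass (interaction 1.63, adjusted p = 0.0799).

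Promoter windows of 250 bases before to 50 bases after the start of each gene came from RefSeq on GRCm38.p6, and 462 of the 752 genes and 12617 of all 21779 had one. The E-box CACGTG, which reads alike on both strands and is known to be bound by CLOCK with BMAL1, occurred in 9.09% of the 462 and 9.46% of all. It occurred in 23 of 168 amplified rises (13.7%) and 7 of 142 amplified falls (4.93%). Among blunted genes it occurred in 3 of 39 rises (7.69%) and 3 of 55 falls (5.45%). For reversed genes the counts were 4 of 30 rises (13.3%) and 2 of 25 falls (8%). The classes were not compared by a test. The FOXO core GTAAACA on either strand occurred in 3.03% of the 462 and 2.68% of all. The other motifs were searched on both strands as well. The cAMP response element TGACGTCA occurred in 3.03% and 2.88%, the STAT motif TTCNNNGAA in 5.63% and 7.29%, and the sterol element TCACNCCAC in 1.52% and 1.16%. The DR1 motif of PPARα occurred in none and 0.0634%, and the glucocorticoid element in 0.433% and 0.373%. A match is a description of the letters and not a binding site.

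The stretches below are shown because they hold these letters, in capitals, in members described above, written 5′ to 3′ along the gene. Ciart, Fam214a, Fgf21 and Pnpla5 hold the E-box, and Elovl6 holds the FOXO core. They are examples, as other members described above hold these letters too. Among them are Plin2, Klf15 and Pnpla7 for the E-box and Sult1d1 for the FOXO core.
Ciart (chr3:95882229-95882384, minus strand): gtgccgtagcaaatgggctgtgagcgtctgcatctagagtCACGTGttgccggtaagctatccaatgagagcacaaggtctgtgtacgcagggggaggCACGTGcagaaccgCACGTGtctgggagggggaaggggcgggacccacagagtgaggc
Fam214a (chr9:74952830-74952879, plus strand): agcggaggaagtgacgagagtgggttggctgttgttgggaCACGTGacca
Fgf21 (chr7:45615495-45615580, minus strand): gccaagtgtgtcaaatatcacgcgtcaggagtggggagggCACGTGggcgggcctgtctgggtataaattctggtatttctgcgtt
Pnpla5 (chr15:84123267-84123352, minus strand): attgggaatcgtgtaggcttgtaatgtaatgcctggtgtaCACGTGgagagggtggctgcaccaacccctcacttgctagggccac
Elovl6 (chr3:129532223-129532309, plus strand): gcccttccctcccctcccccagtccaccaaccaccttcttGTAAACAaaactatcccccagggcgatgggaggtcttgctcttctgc

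Ciart held 3 E-boxes, of which the first starts 116 and the last 44 bases before the start of the gene. Fam214a and Fgf21 held 1 each, starting 10 and 50 bases before. These genes differ in class, with Ciart and Fam214a reversed rises, Fgf21 an amplified rise and Pnpla5 classed as a blunted fall, and the same letters occurred in each.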

How the data were processed

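Liver RNA of 24 mice, labelled with Cy3, was put by the authors on 1-colour Agilent mouse arrays and scanned with Feature Extraction 10.10.1.1. The values used were the log2 values of the deposited series matrix, 32595 of 56605 probes, which the authors made from the median spot signal by a filter, a washing bath correction and quantile normalization. Per the file headers, the scanner files give intensity as spot median, mean, background and processed signal, used for alternatives and for detection. Probes were named by the files, and 1009 names were updated through RefSeq accessions.

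limma 3.58.1 in R 4.3.3 was fitted to group means with slide (3 slides, 2 arrays per group on each) as a term and array weights, since the labels do not name the bath. P-values were adjusted by Benjamini-Hochberg over all 32595 probes, and a call needed an adjusted p of at most 0.05 and a fold over 1.5. A change in a single genotype passed at an adjusted p of at most 0.05. Errors are standard errors of the fit. Named genes were the 5 with the largest interaction in each of 6 classes, with a RefSeq symbol, at least 2 arrays above background in every group and no split of the fasted LKO arrays, up to 4 called members of each gene list, and Pik3ca. Members and lists were chosen with earlier results of these data known. Figures and tables were made in Python 3.11.15. Alternatives were other signals, background corrections, filters, probe rules and blocks, and the omission of arrays.

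Replicate numbers were not used to pair the samples in the main fit. Deviations of same-numbered arrays, after group and slide means were removed, correlated at -0.28 to 0.21 over 36 pairs. These values do not settle whether the samples were paired. Detection was the scanner's flag for a spot well above background. A bound written as "at least" sets the mean of the bright group against the lowest signal of probes well above background. Values of some genes are not reported here.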

Additional observations from a re-analysis of the deposited data

Results flagged for a closer look

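Genotype changed the fasting response in 752 genes by the test of the interaction itself, as described above. In 33 of 288 groups of 6 arrays (72 named genes in 4 groups) 1 array lay far from the other 5, by a gap to its neighbour above Dixon's 95% critical value for groups of 6. Chance gives about 1 in 20 such groups, which is 14.4 of 288, and the genes are not independent.

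Fasted LKO replicate 4 was that array in 12 of the 33 groups. It was lowest for genes that fasting raised more in LKO, with 7.41 for Hrob, 12.16 for Acot2, 16.12 for Acaa1b, 10.55 for Acot5, 15.94 for Acot1, 10.81 for Acot4 and 12.89 for Slc16a1 on the log2 scale. It was highest for genes with a lower fasting change in LKO than in LWT, with 10.16 for Adora1, 12.67 for Upp2, 11.69 for Slco1a4, 14.59 for Hal and 14.96 for Sds. The fit gave this array a weight of 0.356. Without it 812 genes passed, and 694 of the 752 were among them.

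Fed LWT replicate 3, with a weight of 0.317, was highest in 5 groups, at 10.69 for Tubb2a-ps2, 15.44 for Plin2, 12.81 for Crat, 7.14 for Il1rn and 13.60 for Cyp1a2. Fasted LWT replicate 2 was highest for Bdh1 (14.81), Abcg5 (14.31) and Srxn1 (12.65). Fasted LWT replicate 5 was lowest for Acot2 (11.37) and Ehhadh (14.85). Fed LWT replicate 5 was highest for Ntf3 (7.21) and lowest for Fam214a (10.30), replicate 4 was lowest for Fabp5 (13.79), and replicate 6 was highest for Foxo1 (11.92).

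Among fed LKO arrays, replicate 2 was highest for Kbtbd12 (7.16) and Lifr (15.17), replicate 3 for Elovl6 (13.43), replicate 4 for Plin2 (14.58), replicate 5 for Lepr (10.55) and replicate 6 for Hlf (10.31). Fasted LKO replicate 1 was highest for Thrsp (11.17).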

How the results depend on the processing

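The 752 genes kept the sign of the interaction in every alternative run, except that 734 did without fasted LKO replicates 3 to 6 and 689 of 693 without the probes that split that group. Of 72 named genes 45 kept their call in all 37 alternatives with a test. The count was 753 with the scanner's median signal, 692 with normexp background correction, 757 with a filter on dim probes, 745 without the slide term, 556 without array weights, 762 with p adjusted over one probe per gene and 651 with the mean of a gene's probes. Without array weights reversed changes numbered 57, and 13 of the 72 named genes lost their call, among them Acot1, Acot4, Acot5, Bdh1, Crat, Hal, Sds, Klf15, Cyp27a1, Igfals, Ddit4 and AA986860. The mean of a gene's probes ended the calls of 4, among them Acot5, Cyp27a1 and Lifr. With the processed signal, blunted changes numbered 272, fasting changes in LWT 3341, and genotype differences 1667 in fed and 1403 in fasted mice, and the median interaction was -0.044. Without fasted LKO replicates 1 and 2 the counts were 1285 called, 842 amplified and 228 reversed. Without the probes that split these arrays 518 genes differed in fed mice. Without fasted LKO replicates 3 to 6, an alternative chosen after seeing the data, 1584 genes differed in fasted mice. It ended the calls of 15 of the 72 named genes, among them G0s2, Irs1, Hsd17b7, Herpud1 and Hddc3. With no minimum fold, the counts were 2172 called, 1343 amplified, 647 blunted and 166 reversed, with fasting changes in 9683 genes in LWT and 9295 in LKO and genotype differences in 4437 fed and 4851 fasted. By signs and sizes alone, amplified changes numbered 317, blunted 90 and reversed 345. With the replicate block 804 genes were called (543 amplified, 150 blunted and 107 reversed), 678 of them among the 752, and the block ended the calls of AA986860, Fabp5, Cyp27a1 and Ddit4. Leaving out one array at a time gave 534 to 1056 called genes, 347 to 762 amplified, 118 to 255 blunted and 66 to 129 reversed changes, with 1986 to 2318 fasting changes in LWT, 2540 to 2976 in LKO, and 811 to 920 fed and 774 to 993 fasted genotype differences. Blunted changes reached 255 without fasted LWT replicate 4, amplified 762 without fasted LKO replicate 2. Of 72 named genes 15 lost their call in at least 1 of 24 such omissions. Array signal near background limits Pnpla5, Pnpla3, Slc2a4, Clec2h, Hrob, Ciart and Il1rn. The cause of these shifts was not tested.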
